A study of Mus musculus with 6 samples.

Results

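Melanocytes are the pigment cells of skin, hair, eye and inner ear, and the 10 genes described here are those by which they are usually recognised: Tyr, Tyrp1, Dct, Pmel, Mlana, Slc45a2, Oca2, Mitf, Kit and Ednrb. The genes were taken by name from what is known of melanocytes, with earlier results of these data known, and each symbol was matched to 1 Ensembl gene. All 10 were found among the 39179 genes counted in the sensory epithelium of the inner ear of newborn (P0) wild-type C57Bl/6J mice. The cochlea, the organ of hearing, and the vestibule, the organ of balance, were dissected from 20 ears of 10 mice, and RNA-seq was run on 3 libraries of each tissue. No gene was altered and no treatment was given in either tissue, so the 1 comparison of the design is vestibule against cochlea. A single RNA yield is stated for each tissue, and separate pools of RNA for the libraries of a tissue are not described, so the p-values below measure the spread between these libraries, which may be technical.

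Melanocytes arise from the neural crest and make melanin inside a dedicated organelle, the melanosome. Tyrosinase (Tyr) is the rate-limiting enzyme of melanin synthesis, and its relatives Tyrp1 and Dct act later in the eumelanin branch of the pathway. Pmel forms the fibrils on which melanin is laid down, Mlana is a small melanosomal membrane protein, and Slc45a2 and Oca2 are membrane proteins that influence the pH of the melanosome. Mitf is the transcription factor that governs the lineage, and Kit and Ednrb are the receptors through which stem cell factor (Kitl) and endothelin 3 (Edn3) act on melanocyte precursors. In the ear, melanocytes become the intermediate cells of the stria vascularis of the cochlea, which are needed for the endocochlear potential, and others lie below the dark cells of the vestibule. Loss of these cells leads to deafness together with white spotting of the coat, as in Mitf, Kit and Ednrb mutants.

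The promoter sequences of 3 of the enzymes are shown because the longest run of letters common to all 3, GTCATGTGCT, is the M-box, which holds the CATGTG core that MITF is known to bind. Each sequence runs 5′ to 3′ on the strand of the gene, from 250 bases before to 50 bases after a gene start of RefSeq on GRCm38.p6. In the first 3 the capitals mark GTCATGTGCT, and in the Mitf promoter they mark TGACGTCA, the palindromic cAMP response element.
Tyr, chr7:87493463-87493762, minus strand: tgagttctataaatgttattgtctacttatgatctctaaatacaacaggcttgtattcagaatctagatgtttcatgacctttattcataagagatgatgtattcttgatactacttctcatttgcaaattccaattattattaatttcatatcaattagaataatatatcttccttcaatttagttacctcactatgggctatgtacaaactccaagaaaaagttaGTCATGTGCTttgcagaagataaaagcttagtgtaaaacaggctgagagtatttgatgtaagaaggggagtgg
Tyrp1, chr4:80833963-80834262, plus strand: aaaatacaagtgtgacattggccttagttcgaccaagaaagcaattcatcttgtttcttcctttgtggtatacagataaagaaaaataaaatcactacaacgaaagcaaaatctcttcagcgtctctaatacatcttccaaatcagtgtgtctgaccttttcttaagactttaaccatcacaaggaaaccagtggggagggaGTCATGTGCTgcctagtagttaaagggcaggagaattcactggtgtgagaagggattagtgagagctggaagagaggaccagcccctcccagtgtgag
Dct, chr14:118052197-118052496, minus strand: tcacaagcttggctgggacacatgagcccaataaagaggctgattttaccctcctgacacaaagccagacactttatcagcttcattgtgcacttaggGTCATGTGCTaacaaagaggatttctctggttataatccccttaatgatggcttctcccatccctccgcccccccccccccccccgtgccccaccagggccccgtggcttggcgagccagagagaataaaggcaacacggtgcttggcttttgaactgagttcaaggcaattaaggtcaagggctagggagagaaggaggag
Mitf, chr6:97991533-97991832, plus strand: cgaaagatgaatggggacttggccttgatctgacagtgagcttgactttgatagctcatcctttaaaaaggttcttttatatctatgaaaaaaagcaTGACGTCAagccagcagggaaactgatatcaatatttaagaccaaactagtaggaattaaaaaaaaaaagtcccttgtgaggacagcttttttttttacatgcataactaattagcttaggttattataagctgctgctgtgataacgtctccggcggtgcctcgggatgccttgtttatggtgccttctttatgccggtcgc

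RefSeq promoters were at hand for 7 of the 10 genes, 10 promoters in all, and not for Mlana, Pmel and Slc45a2. GTCATGTGCT, searched on both strands, occurred in 3 of these 10 promoters and in 61 of all 32851 promoters of the table (0.186%). Its first base lay at -23 in Tyr, at -48 in Tyrp1 and at -152 in Dct, counted from the RefSeq start. The shorter core CATGTG, which GTCATGTGCT contains, was found in the promoters of 4 of the genes, the fourth being Oca2, and in 14.2% of all promoters. The related E-box CACGTG was in 0 of the 10 and in 7.15% of all promoters. TGACGTCA was in 1 of the 3 Mitf promoters, at -153, and in 1.79% of all promoters. None of the 18 promoters that were at hand for other melanosome genes held GTCATGTGCT. These letters were chosen after the promoters had been looked at, so the matches are a description and not a test.

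The counts on genes ran from 24464483 to 33664793 per library, and levels are given as CPM, counts scaled to library size, of which 1 stands for 24.5 to 33.7 counts. Reads that htseq-count could not give to a gene (18.5% to 20.6% of each file) were left out. A gene was tested where 3 libraries reached 1 CPM. Of the 14723 tested genes, 15.8% were called higher in the vestibule and 11.6% higher in the cochlea by edgeR's quasi-likelihood test at a Benjamini-Hochberg adjusted p (FDR) of 0.05. Without TMM scaling of the library sizes, the share of the calls that were higher in the vestibule went from 57.6% to 68.8%, and the median log2 fold change over all tested genes went from 0.0048 to 0.13. Markers of hair cells and of supporting cells were found in both tissues, so they do not check which tissue a library came from. The summed level of 8 hair cell genes was 559 to 772 CPM in the cochlea and 1023 to 1301 CPM in the vestibule, with 5 genes called higher in the vestibule, and that of 8 supporting cell genes was 2134 to 2918 CPM and 3202 to 3674 CPM, with 5 called higher in the cochlea and 2 called higher in the vestibule. In cochlea replicate 3 the 8 skeletal muscle genes summed to 305 CPM, against 7.52 and 14.2 CPM in the other cochlear libraries and 11.4 to 31.2 CPM in the vestibule, and 1 of the 5 tested genes was called, higher in the cochlea. Of the 10 pigment genes, 7 were at their lowest cochlear level in that same library and 3 at their highest. None of the calls of pigment genes given below was lost when this library was left out.

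The pigment genes were higher in the vestibule with 3 exceptions. Tyr, Tyrp1, Dct, Pmel, Mlana, Slc45a2 and Mitf rose, 7 of 10 genes against 15.8% of all tested genes called in that direction. Kit, Oca2 and Ednrb were not called in either direction. The 7 called genes also had all vestibular libraries above all cochlear ones, which was the case for 27.5% of tested genes. All 10 genes passed the filter on low values, but Tyrp1 and Mlana did so through the vestibule alone, where they are high. Of the other 8, which reached 1 CPM in all cochlear libraries, 5 were called. The median log2 fold change over the 10 genes was 1.83 (vestibule minus cochlea), beside 0.0048 over all tested genes. In bulk tissue such as this, fewer cells of a type and less RNA per cell cannot be told apart.

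**Figure D1:**
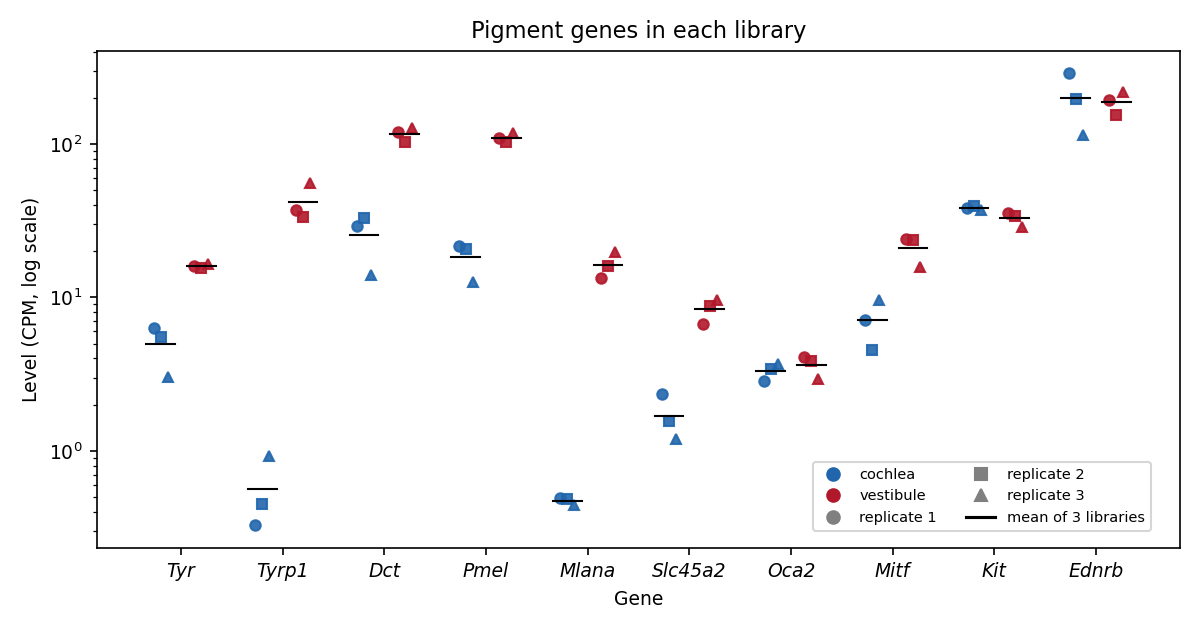
Level of each pigment gene in CPM (log scale) in the 3 cochlear (blue) and 3 vestibular (red) libraries, with marker shapes for the replicate numbers and bars for the mean of 3 libraries. Tyrp1 and Mlana stand below 1 CPM in every cochlear library and at 13.4 CPM or more in every vestibular one, while the points of Oca2 and Ednrb overlap between the tissues.

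The RNA of tyrosinase itself was present in both tissues. Tyr (ENSMUSG00000004651, chr7:87424771-87493512 on GRCm38) had 154, 159 and 89 counts in cochlea replicates 1, 2 and 3, or 6.29, 5.52 and 3.05 CPM. In vestibule replicates 1, 2 and 3 it had 538, 402 and 418 counts, or 16.0, 15.7 and 16.4 CPM. The vestibular libraries lay close together, with a coefficient of variation of 2.36% against 34.3% in the cochlea, and no library of one tissue reached the range of the other. Its log2 fold change was 1.57 (SE 0.27, FDR 0.0026), and it was between 1.30 and 1.76 when single libraries were left out.

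Tyrp1 showed the largest change of the 10 genes. Tyrp1 (ENSMUSG00000005994, chr4:80834123-80851719) had 8, 13 and 27 counts in the cochlea (0.33, 0.45 and 0.92 CPM) and 1243, 862 and 1410 counts in the vestibule (36.9, 33.6 and 55.3 CPM). The cochlear counts were low but well above 0 in each library, and the highest of them came from replicate 3, the library in which Tyr and Dct were lowest. The log2 fold change was 6.07 (SE 0.38, FDR 1.3e-05). Without cochlea replicate 3 it was 6.59, the largest value over the left-out libraries, and the smallest was 5.77. Set against Dct within the same library, Tyrp1 had 1.12, 1.37 and 6.60 counts per 100 Dct counts in cochlear libraries and 30.7, 32.5 and 43.5 in vestibular ones.

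Dct (dopachrome tautomerase, ENSMUSG00000022129, chr14:118012790-118052244) had the most abundant RNA of the 3 enzymes in both tissues on the RPKM scale, which corrects for gene length. It had 716, 949 and 409 counts in the cochlea (29.3, 32.9 and 14.0 CPM) and 4047, 2649 and 3242 counts in the vestibule (120, 103 and 127 CPM). Every vestibular library was above every cochlear one, and cochlea replicate 3 was the lowest of all. The log2 fold change was 2.08 (SE 0.30, FDR 0.0011) and was 1.77 without cochlea replicate 3.

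Of the structural proteins of the melanosome, Pmel (ENSMUSG00000025359, chr10:128704195-128720238) had 529, 593 and 369 counts in the cochlea (21.6, 20.6 and 12.6 CPM) and 3667, 2657 and 2998 counts in the vestibule (109, 103 and 118 CPM). The tissues did not overlap, and the log2 fold change was 2.47 (SE 0.22, FDR 8.4e-05). In the annotation 34 of the 2292 exonic bases of Pmel also belong to Cdk2 and 105 to Dgka, both on the opposite strand. The library kit keeps the strand, but whether counting used it is not given in the sources used here, so a part of the Pmel counts is uncertain. Mlana (ENSMUSG00000024806, chr19:29697824-29708634) had 12, 14 and 13 counts in the cochlea (0.49, 0.49 and 0.44 CPM) and 451, 413 and 500 counts in the vestibule (13.4, 16.1 and 19.6 CPM). The cochlear libraries hardly differed for this gene, and cochlea replicate 3 was level with the others. Mlana had a log2 fold change of 4.99 (SE 0.27, FDR 6.3e-06), second in size to that of Tyrp1.

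Of the pair of transport proteins, Slc45a2 was called and Oca2 was not. Slc45a2 (ENSMUSG00000022243, chr15:11000721-11029233) had 57, 45 and 35 counts in the cochlea (2.33, 1.56 and 1.20 CPM) and 226, 227 and 245 counts in the vestibule (6.71, 8.84 and 9.62 CPM), with a log2 fold change of 2.20 (SE 0.30, FDR 0.00077). Oca2 (ENSMUSG00000030450, chr7:56239760-56536518) had 70, 99 and 107 counts in the cochlea (2.86, 3.44 and 3.66 CPM) and 138, 99 and 75 counts in the vestibule (4.10, 3.85 and 2.94 CPM). The tissues overlapped for Oca2, whose log2 fold change was 0.0034 (SE 0.22, FDR 0.99) with a 95% interval from -0.42 to 0.43. The sign of so small a value depended on the scaling and on the libraries used. The interval of Oca2 ended below the smallest fold change among the 7 called genes, 1.46 for Mitf. The difference between genes was not tested as such on this scale.

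Mitf (ENSMUSG00000035158, chr6:97807052-98021349) had the smallest fold change of the 7 called genes. It had 174, 130 and 281 counts in the cochlea (7.11, 4.51 and 9.62 CPM) and 809, 605 and 401 counts in the vestibule (24.0, 23.6 and 15.7 CPM). All vestibular libraries were above the cochlear ones, with the lowest of them, replicate 3, at 15.7 CPM and the highest cochlear one, also replicate 3, at 9.62 CPM. The log2 fold change was 1.46 (SE 0.26, FDR 0.0036), and it was between 1.24 and 1.73 when single libraries were left out. Mitf is also used by mast cells and osteoclasts. Markers of mast cells, and of macrophages and osteoclasts in a joint list, were likewise higher in the vestibule. Among the vestibular libraries the mast cell sum was highest in replicate 3, where Mitf was lowest, and among the cochlear ones both were highest in replicate 3. The 8 mast cell markers other than Kit summed to 5.97 to 10.2 CPM in the cochlea and 103 to 127 CPM in the vestibule, a ratio of 14.5. None was at 0 in all cochlear libraries, and the serine protease genes Mcpt4 and Cma1 had mean cochlear levels of 0.453 and 1.63 CPM and mean vestibular levels of 9.48 and 25.6 CPM. The 10 macrophage and osteoclast markers summed to 97.5 to 125 CPM and 292 to 306 CPM. All 8 that were tested were called higher in the vestibule, beside 15.8% of all tested genes. Of the 8, Acp5 passed the filter through the vestibule alone. The part of these cells in the Mitf counts was not tested.

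Neither receptor was called. Kit (ENSMUSG00000005672, chr5:75574916-75656722) had 936, 1141 and 1081 counts in the cochlea (38.3, 39.6 and 37.0 CPM) and 1195, 872 and 732 counts in the vestibule (35.5, 34.0 and 28.7 CPM). All cochlear libraries were above all vestibular ones, a pattern seen in 14.3% of tested genes, but the difference was small and did not pass the threshold. Kit had a log2 fold change of -0.35 (SE 0.12, FDR 0.068; 95% interval -0.59 to -0.11), and the FDR was 0.055 to 0.23 over the alternatives tried. Kit is a mast cell marker too, and it was the 1 marker of the 7 tested mast cell genes that was not called, while the other 6 were called higher in the vestibule, Mcpt4 and Tpsab1 among them having passed the filter through the vestibule alone. Ednrb (ENSMUSG00000022122, chr14:103814625-103844402) had 7060, 5637 and 3347 counts in the cochlea (289, 196 and 115 CPM) and 6464, 3955 and 5527 counts in the vestibule (192, 154 and 217 CPM). The cochlear libraries spread widely for this gene, with a coefficient of variation of 43.6%, and held both its highest and its lowest value. Ednrb had a log2 fold change of -0.20 (SE 0.30, FDR 0.66; 95% interval -0.80 to 0.39), and it was 0.13 without cochlea replicate 1. Ednrb is also made by other neural crest derivatives such as glia. The 10 Schwann cell and glial markers summed to 898 to 1124 CPM in the cochlea and 1506 to 1882 CPM in the vestibule. Of these, 4 were called higher in the vestibule and 1 in the cochlea, beside 15.8% and 11.6% of all tested genes. The part of glia in the Ednrb counts was not tested.

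**Figure D2:**
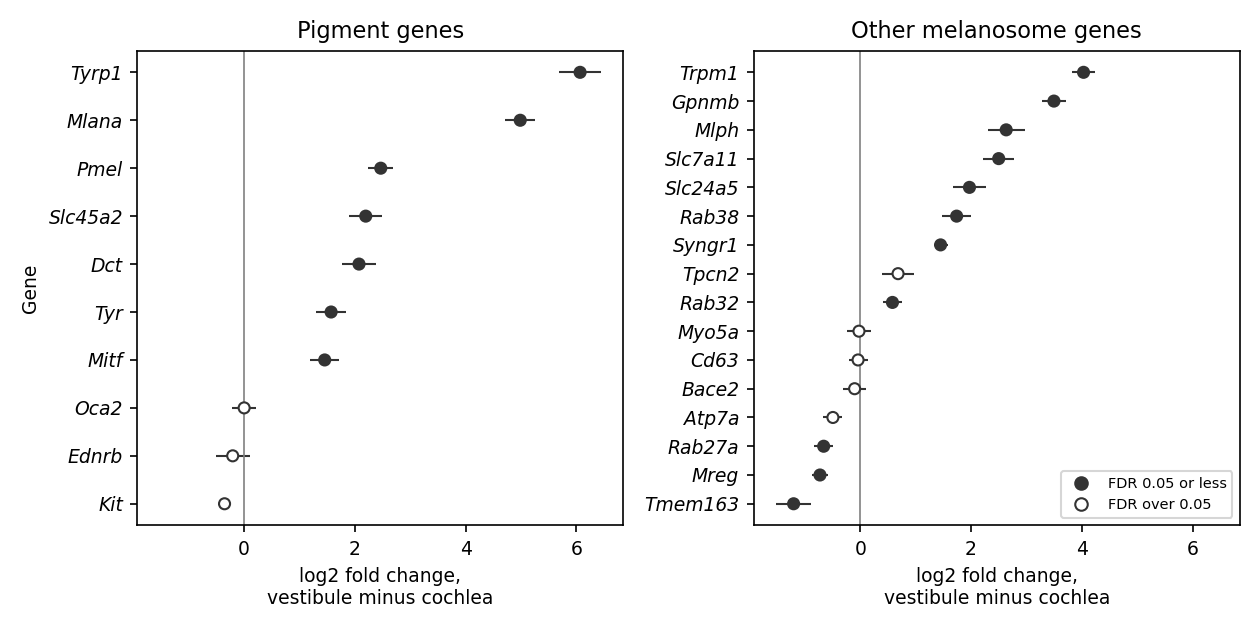
Log2 fold change, vestibule minus cochlea, of the 10 pigment genes (left) and of the 16 tested genes of the list of other melanosome genes (right), with bars for 1 SE; filled points have an FDR of 0.05 or less. Fold changes of the pigment genes run from 6.07 for Tyrp1 to -0.35 for Kit, and the other melanosome genes fall on both sides of 0.

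Levels can be set between genes only per length, and for this the deposited log2 RPKM values were used after taking them off the log scale. In the cochlea Ednrb was highest with 49.5 ± 21.6 RPKM (SD, n = 3), followed by Dct with 11.3 ± 4.45, Pmel with 8.60 ± 2.31 and Kit with 6.58 ± 0.224 RPKM. The libraries of Dct overlapped those of Pmel, and those of Pmel overlapped those of Kit, while Ednrb lay above all of them. The other 6 genes were below 2 RPKM, from Tyr with 1.50 ± 0.514 RPKM through Mitf, Oca2, Mlana and Slc45a2 to Tyrp1 with 0.204 ± 0.112 RPKM. From Tyr down to Slc45a2 each gene overlapped the next in this order, and Tyrp1 lay below them all. In the vestibule the order was different. Dct with 51.8 ± 5.49, Pmel with 51.8 ± 3.37 and Ednrb with 46.6 ± 7.86 RPKM overlapped at the top. Mlana with 26.3 ± 5.02 and Tyrp1 with 14.9 ± 4.15 RPKM came next, each separated from its neighbours by all libraries. Kit with 5.63 ± 0.610 and Tyr with 4.85 ± 0.114 RPKM overlapped, as did Mitf with 2.54 to 3.88 and Slc45a2 with 2.82 ± 0.504 RPKM. Oca2 was lowest with 0.921 ± 0.154 RPKM. Tyrp1 thus went from the lowest place in the cochlea to the fifth in the vestibule, and Mlana from the eighth to the fourth.

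The make-up of the pigment gene RNA was compared next, within each library, over the 7 genes that encode melanosomal proteins (Tyr, Tyrp1, Dct, Pmel, Mlana, Slc45a2 and Oca2). A share within a library does not depend on the scaling of library sizes. Their counts summed to 1546, 1872 and 1049 in the cochlear libraries and 10310, 7309 and 8888 in the vestibular ones, or 63.2, 65.0 and 35.9 CPM against 306, 285 and 349 CPM. Dct and Pmel together made up most of the sum in both tissues, with 74.2% to 82.4% in cochlear libraries and 70.2% to 74.8% in vestibular ones. The cochlear share of Tyrp1 was 1.26% ± 1.14 (SD, n = 3) and the vestibular share 13.2% ± 2.28. In single libraries it was 0.517% (95% Wilson interval 0.262 to 1.02), 0.694% (0.406 to 1.18) and 2.57% (1.77 to 3.72) for cochlea replicates 1, 2 and 3. For the vestibule it was 12.1% (11.4 to 12.7), 11.8% (11.1 to 12.6) and 15.9% (15.1 to 16.6). The intervals cover counting error only. They did not overlap between the tissues.

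The share of Mlana likewise went from 0.921% ± 0.276 in the cochlea to 5.22% ± 0.730 in the vestibule. Oca2 went the other way, from 6.67% ± 3.08 to 1.18% ± 0.290, and so did Tyr, from 8.98% ± 0.850 to 5.14% ± 0.404. For these 4 genes the libraries of the tissues did not overlap. The two-sided exact permutation p was 0.1 for each, the smallest that 3 libraries against 3 can give, and 0.175 after adjustment over the 7 genes, so this test cannot take these shares past a threshold of 0.05. The shares of Dct (45.3% ± 5.91 and 37.3% ± 1.67), Pmel (33.7% ± 1.81 and 35.2% ± 1.35) and Slc45a2 (3.14% ± 0.663 and 2.68% ± 0.461) overlapped between the tissues, with exact permutation p-values of 0.2, 0.4 and 0.4. Between the tissue means, 17.8% of the make-up would have to be moved from some genes to others to turn one into the other (39.7% with Mitf, Kit and Ednrb in the sum as well). Pairs of libraries of the same tissue differed by 3.27% to 11.7% (6 pairs) and pairs of different tissues by 13.3% to 22.5% (9 pairs). A share depends on what it is a share of. With Mitf, Kit and Ednrb in the sum as well, the shares of Tyr, Dct and Slc45a2 were higher in the vestibule, that of Pmel was higher there by 13.7 percentage points in place of 1.53, and those of Tyrp1, Mlana and Oca2 kept their direction with differences of 7.25, 2.78 and -0.57 points in place of 12.0, 4.30 and -5.49. With RPKM in place of counts, the difference was larger for Mlana (13.6 points) than for Tyrp1 (8.53 points), and that of Pmel turned to -2.70 points. The small difference of Pmel was 0.52 points without cochlea replicate 2, 0.96 without vestibule replicate 2 and 2.27 without cochlea replicate 3 or vestibule replicate 3.

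**Figure D3:**
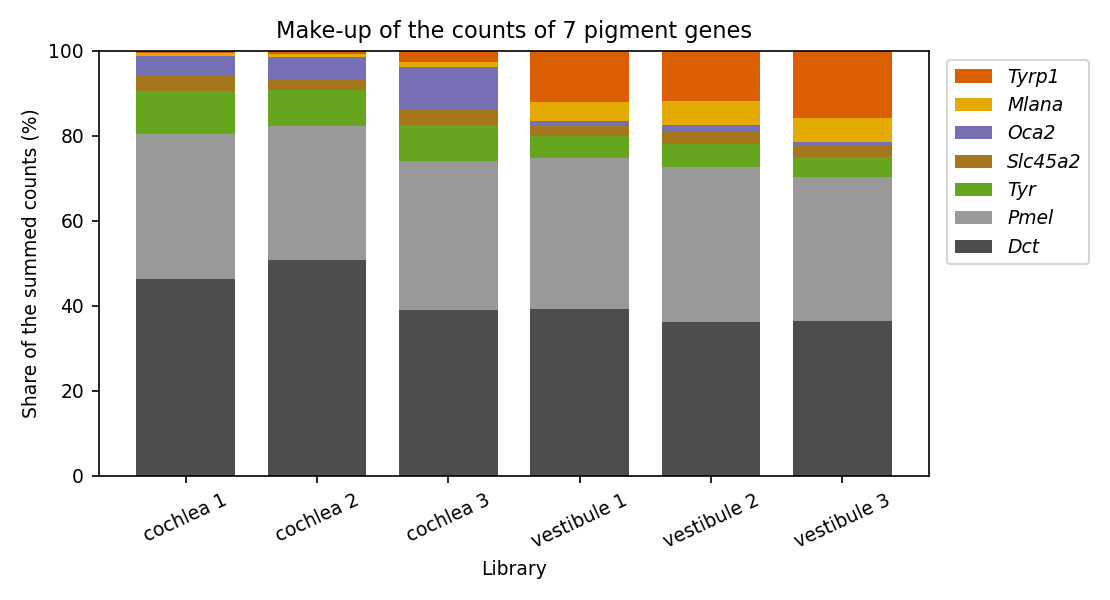
Share of each of 7 pigment genes in their summed counts (%, stacked to 100) in each of the 6 libraries. Tyrp1 and Mlana take 13.2% and 5.22% on average in the vestibule against 1.26% and 0.921% in the cochlea, and Oca2 takes 1.18% against 6.67%.

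Other genes of the melanosome, a list of 18, were divided. Of the 16 that passed the filter, 8 were higher in the vestibule, 3 were higher in the cochlea and 5 were not called. Over all tested genes, 15.8% were called higher in the vestibule and 11.6% higher in the cochlea. The median log2 fold change of the 16 was 0.63. The largest changes were those of Trpm1, Gpnmb and Mlph, all higher in the vestibule. Trpm1, a cation channel of melanocytes and of bipolar cells of the retina, had 2.26 to 3.31 CPM in the cochlea and 43.0 to 51.3 CPM in the vestibule (log2 fold change 4.03, SE 0.20, FDR 5.6e-06). Gpnmb, a glycoprotein related to Pmel that macrophages and osteoclasts make as well, had 3.90 to 6.62 and 60.9 to 72.5 CPM (3.50, SE 0.22, FDR 1.3e-05). Mlph, which links melanosomes through Rab27a to the motor protein Myo5a, had 0.777 to 1.88 and 7.85 to 11.7 CPM (2.64, SE 0.33, FDR 0.00053). Its partners differed from it: Rab27a was higher in the cochlea (-0.66, SE 0.18, FDR 0.023) and Myo5a was not called (-0.023, SE 0.22, FDR 0.95). These and the following genes of the list were named after their values were seen. Slc7a11, the cystine transporter, Slc24a5, an ion exchanger of the pigment pathway, Rab38, Syngr1 and Rab32 made up the rest of the 8. Mreg and Tmem163 were the other genes higher in the cochlea. Only 1 gene was called higher in the cochlea when cochlea replicate 1 or vestibule replicate 3 was left out. Gpr143 and Mc1r, the melanocortin receptor, did not pass the filter and had means of 0.137 and 0.0964 CPM in cochlear libraries and 0.966 and 0.546 CPM in vestibular ones.

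The machinery that builds melanosomes also builds other lysosome-related organelles, and few of its genes were called. Of 20 genes of the BLOC and AP-3 complexes and their partners, Hps3 alone was called, higher in the vestibule (log2 fold change 0.61, SE 0.17, FDR 0.030). That is 5% of the list, beside 27.4% of all tested genes called in either direction and 15.8% called higher in the vestibule. The call was lost without cochlea replicate 1, cochlea replicate 2, vestibule replicate 1 or vestibule replicate 2, with 0 genes of the list then called. Without cochlea replicate 3, 2 were called. With the replicate number as a block in the fit, the call of Hps3 was lost as well (FDR 0.086). The median log2 fold change was 0.017 over the 20 genes.

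Among the 8 tested of 11 ligands and signalling partners, 1 was higher in each direction, a share (12.5%) near that of all tested genes (15.8% and 11.6%). Kitl, the ligand of Kit, had 25.1 to 33.7 CPM in the cochlea and 25.8 to 30.2 CPM in the vestibule (log2 fold change -0.15, SE 0.15, FDR 0.51). Edn3, the ligand of Ednrb, was higher in the vestibule, with 9.20 to 12.7 against 28.6 to 33.9 CPM (1.35, SE 0.17, FDR 0.00056). Ednra, the other endothelin receptor, was higher in the cochlea, with 41.2 to 53.6 against 26.1 to 31.7 CPM (-0.84, SE 0.13, FDR 0.0016). Without cochlea replicate 2, 2 genes of the list were called higher in the cochlea. The median log2 fold change was -0.12.

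Of the 12 transcription factors of the lineage and relatives of Mitf, 4 were higher in the vestibule and 2 in the cochlea. The shares of all tested genes called in these directions were 15.8% and 11.6%. The median log2 fold change of the 12 was 0.32. Pax3, which acts upstream of Mitf, was low in both tissues, with 0.240 to 0.409 CPM in the cochlea and 1.30 to 1.60 CPM in the vestibule (2.11, SE 0.30, FDR 0.0010). Tfec, a relative of Mitf that macrophages also use, was at a like level, with 0.278 to 0.572 and 1.64 to 2.08 CPM (2.04, SE 0.31, FDR 0.0014). Both passed the filter through the vestibule alone. Tfeb, a further relative and a regulator of lysosomal genes, had 18.5 to 22.0 and 38.2 to 42.9 CPM (0.91, SE 0.12, FDR 0.00082). Sox10, which is needed by melanocytes and glia and is also made by the epithelium of the ear, had 242 to 308 and 320 to 440 CPM. Its libraries did not overlap, but it did not pass the threshold (0.34, SE 0.16, FDR 0.15). The genes higher in the cochlea were Lef1 and Zeb2, named after their values were seen, and 1 of them was called without vestibule replicate 2.

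Markers of several other cell types were also higher in the vestibule. For comparison, 15.8% of all tested genes were called higher in the vestibule and 11.6% higher in the cochlea. The 8 markers of dark cells and marginal cells, the potassium-secreting cells that lie next to melanocytes in both organs, summed to 650 to 817 CPM in the cochlea and 1274 to 1397 CPM in the vestibule, with 7 called higher in the vestibule. The summed level of 8 endothelial markers was 192 to 270 and 437 to 622 CPM, with 6 called higher in the vestibule and 1 in the cochlea. For 8 mesenchymal markers the ranges were 2689 to 3185 and 3055 to 3658 CPM, with 2 called in each direction. The 6 genes known from intermediate cells of the stria, chosen outside the pigment genes, ran from 533 to 566 CPM in the cochlea and from 467 to 529 CPM in the vestibule. In each direction 1 was called, a share (16.7%) near those of all tested genes. Several of these genes are made by other cells of the ear too. The part of these cell types in the pigment gene counts was not tested.

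**Figure D4:**
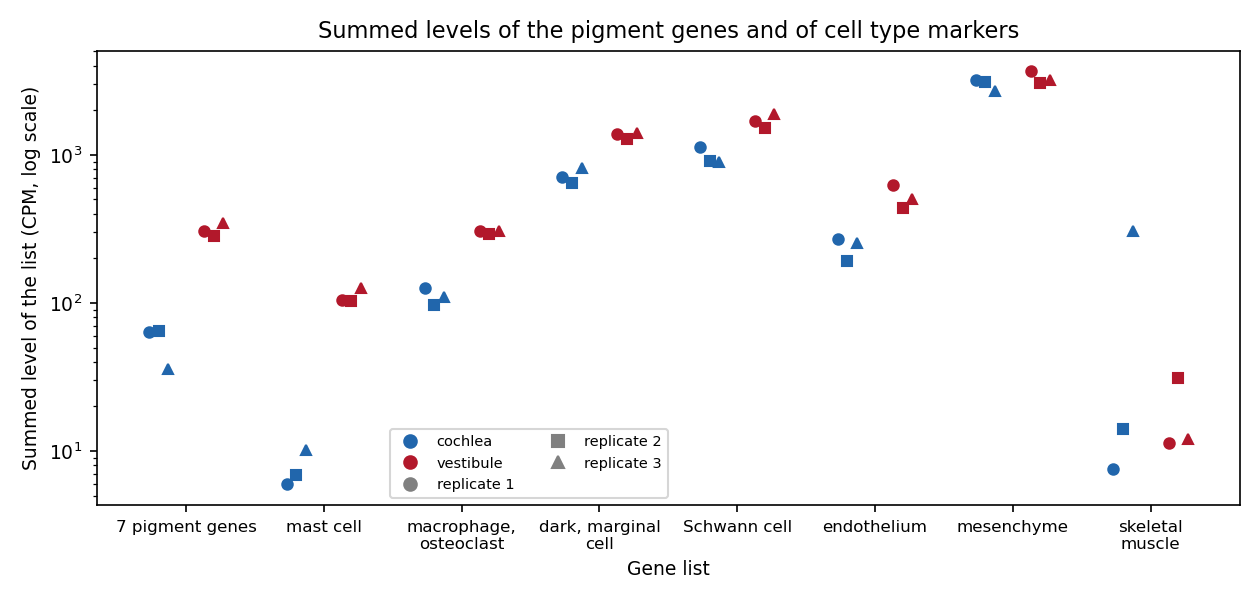
Summed level (CPM, log scale) of the 7 pigment genes that encode melanosomal proteins and of marker lists of other cell types in each cochlear (blue) and vestibular (red) library, with marker shapes for the replicate numbers. The mast cell sum leaves out Kit. The pigment gene sums are 35.9 to 65.0 CPM in the cochlea and 285 to 349 CPM in the vestibule, and skeletal muscle stands out at 305 CPM in cochlea replicate 3.

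The genes whose pattern over the 6 libraries was nearest to that of the 7 genes encoding melanosomal proteins were looked for among all tested genes that are not pigment genes. Likeness was the root mean square difference between centred log2 CPM values, with the mean of the 7 genes as the target. The log2 fold changes of these genes ran from 0.0034 for Oca2 to 6.07 for Tyrp1, so their mean need not match any of them. Tyrp1 and Mlana, which passed the filter through the vestibule alone, are part of that mean. Penk, which encodes enkephalin, was nearest with a difference of 0.13, followed by F13a1, a coagulation factor subunit made by macrophages (0.13), the potassium channel Kcna10 (0.13), the glutamate transporter Slc1a1 (0.14) and the peptidase Enpep (0.14). Their log2 fold changes were between 2.75 for Kcna10 and 3.00 for F13a1. Slc1a1 had a mean of 0.364 CPM in the cochlea, below the 1 CPM of the filter, and of 2.72 CPM in the vestibule. Among the nearest to Mitf were Kat2b (0.12) and Nfam1 (0.13), to Kit Maged2 (0.040), Cwc25 (0.047) and Fbxl16 (0.049), and to Ednrb Coq10b (0.10), Cd200 (0.14) and Ugt1a6a (0.14). The 6 points of each profile share the split by tissue, so likeness describes these libraries only.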

How the data were processed

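RNA-seq of cochlear and vestibular sensory epithelium was analysed, with 3 libraries per tissue grouped by their tissue labels. The authors aligned the reads to GRCm38 with TopHat2 2.1.0, counted them per Ensembl gene with HTSeq 0.5.4p5, and deposited whole-number counts without normalization, together with a matrix of log2 RPKM over the genes that passed their filter. SAMtools 0.1.18 and edgeR 3.4.2 are further named in the submitters' processing notes, and the strand setting of the counting is not given in the sources used here. The log2 RPKM matrix was checked against the counts.

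Levels, their sums and the overlap of libraries were read on CPM over gene counts, without TMM scaling. The TMM factors were 0.92 to 0.98 in cochlear and 0.99 to 1.09 in vestibular libraries. CPM therefore leans towards the vestibule beside the fold changes, and small differences can change sign. Genes at 1 CPM or more in 3 libraries were tested by edgeR 4.0.16 (quasi-likelihood, TMM library sizes, R 4.3.3). P-values were adjusted by Benjamini-Hochberg over all 14723 genes, with an FDR of 0.05 and no block. Adjusted p-values in the text come from this fit, except those given for the alternatives and for the shares. The SE is the log2 fold change divided by the square root of F, and 95% intervals are 1.96 SE wide on each side. The multiplier 1.96 is that of a normal distribution, so these intervals are narrower than ones matched to the F test. Shares were compared by a two-sided exact permutation test. Alternatives were DESeq2 1.42.0, limma-voom (limma 3.58.1), other scalings and filters, the replicate block and leaving out each library, the last on the 14723 genes of the full test. Log2 CPM for likeness used a prior count of 0.5.

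The members and lists were chosen with earlier results of these data known. Named are all 10 pigment genes, from each other list the 3 largest called changes whose libraries do not overlap, always Kitl, Edn3, Sox10 and Pax3, and the genes of nearest pattern, 5 for the melanosomal genes and 3 each for Mitf, Kit and Ednrb. Of these, 1 gene is not reported here. Coordinates are those of GENCODE vM21 (GRCm38), not the release the authors counted on. Figures were drawn with matplotlib 3.10.9 in Python 3.11.15.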

Additional observations from a re-analysis of the deposited data

How the results depend on the processing

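The 7 pigment genes called higher in the vestibule (Tyr, Tyrp1, Dct, Mlana, Pmel, Slc45a2 and Mitf) kept their direction and their call under all 13 alternatives, and Kit, Oca2 and Ednrb were called under none. The log2 fold change of Oca2 turned negative with RLE size factors (-0.015), DESeq2 (-0.015), no filter (-0.016), filterByExpr (-0.0070), and without cochlea replicate 1 (-0.10), vestibule replicate 1 (-0.059) or vestibule replicate 2 (-0.035). It was at most 0.10 with a library left out (without vestibule replicate 3). That of Ednrb turned to 0.13 without cochlea replicate 1 and was -0.49 without cochlea replicate 3. The cause was not tested.

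With all 10 genes in the sum, the make-up differed by 39.7% between the tissues, and the shares of Tyr, Dct and Slc45a2 were higher in the vestibule by 1.26, 12.6 and 0.95 percentage points, and that of Pmel by 13.7 in place of 1.53, while the differences of Tyrp1, Mlana and Oca2 shrank to 7.25, 2.78 and -0.57. With RPKM in place of counts, the make-up differed by 22.2%, and the share of Pmel was lower in the vestibule (-2.70 points), with differences of 13.6 for Mlana and 8.53 for Tyrp1. Ednrb holds most of the 10-gene sum in the cochlea, and RPKM gives short genes such as Mlana more weight, by construction.

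Signalling partners higher in the cochlea numbered 2 with no filter and with filterByExpr, and lineage factors 1 without TMM. With single libraries left out, the counts ran from 1 to 3 for other melanosome genes higher in the cochlea, from 0 to 2 for organelle biogenesis genes higher in the vestibule, from 1 to 2 for signalling partners higher in the cochlea and from 1 to 2 for lineage factors higher in the cochlea. Same-numbered libraries of the tissues did not deviate together (correlations -0.18, -0.26 and -0.48), and no library correlated best with its own number. With 3 libraries per tissue, such deviations cannot show whether same-numbered libraries share mice or a batch. With the replicate block, 1609 genes were called higher in the vestibule and 1009 in the cochlea, in place of 2325 and 1711, with 0 organelle biogenesis genes higher in the vestibule and 1 lineage factor higher in the cochlea. At 8 to 27 counts of Tyrp1 and 12 to 14 of Mlana per cochlear library, depth limits the precision of these 2 cochlear levels.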

Other observations

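The mast cell genes, which share Mitf and Kit with melanocytes, were called higher in the vestibule in 6 of the 7 cases tested. That compares with 15.8% of all tested genes, but Mcpt4 and Tpsab1 passed the filter through the vestibule alone. Cpa3, the mast cell carboxypeptidase, was at 2.14 ± 0.631 CPM in cochlear and 31.7 ± 4.21 CPM in vestibular libraries (mean ± SD, n = 3), with a log2 fold change of 3.76 (SE 0.26, FDR 2.0e-05). The tryptase gene Tpsb2 had 2.17 ± 1.08 and 29.4 ± 3.47 CPM (3.65, SE 0.32, FDR 7.0e-05), and Hdc, the enzyme that makes histamine, 1.23 ± 0.170 and 13.0 ± 1.60 CPM (3.29, SE 0.23, FDR 2.0e-05). The receptor subunit genes Fcer1a and Ms4a2 did not pass the filter, with means of 0.0136 CPM each in the cochlea and 0.363 and 0.226 CPM in the vestibule.

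Among the markers of dark cells and marginal cells, Bsnd, a subunit of their chloride channels, had 2.74 ± 0.789 CPM in the cochlea and 42.1 ± 1.48 CPM in the vestibule (log2 fold change 3.83, SE 0.21, FDR 6.2e-06). Kcne1, a subunit of their potassium channel, had 13.9 ± 2.25 and 115 ± 7.50 CPM (2.93, SE 0.15, FDR 5.8e-06). Slc12a2, the sodium-potassium-chloride cotransporter, which other cells of the ear make too, had 522 ± 72.8 and 549 ± 75.3 CPM and was the 1 gene of the list not called (-0.039, FDR 0.89). Its fold change uses TMM scaling, which the CPM means do not. Of the 6 intermediate cell genes, Cadm1 was higher in the cochlea, with 263 ± 31.8 and 184 ± 14.7 CPM (-0.64, SE 0.15, FDR 0.014), and Kcnj13 was higher in the vestibule, with 1.07 ± 0.223 and 2.95 ± 0.736 CPM (1.34, SE 0.30, FDR 0.011), and Kcnj10, the potassium channel of these cells, had 44.0 ± 12.6 and 50.4 ± 4.24 CPM (0.081, FDR 0.78). Met (-0.45, FDR 0.074), Gsta4 (-0.45, FDR 0.11) and Nrp2 (0.40, FDR 0.11) were not called either. The genes in these paragraphs were picked from their lists after their values were seen.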
